A study of Mus musculus with 24 samples.

Results

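These are the genes that copy DNA in S phase: 41 genes fixed by name, out of 25956 genes tested on a mouse whole-genome expression array. All 41 were measured, through 79 probes. They were grouped by 9 roles, which are the MCM helicase, origin recognition and licensing, the helicase partners, the polymerases and primase, the clamp with its loader and single-strand binding protein, Okazaki fragment joining, nucleotide supply, chromatin behind the fork, and the E2F factors with the E cyclins.

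The cells were macrophages grown from mouse bone marrow over 6 days in M-CSF at 20 ng/ml, a growth factor on which these cells survive and divide. The KO groups were LysMCre X Slc2a1fl/fl (also named Slc2a1M-/-), in which Cre recombinase expressed from the lysozyme M locus cuts the floxed gene of the glucose transporter GLUT1, and the WT groups were Slc2a1 fl/fl floxed controls. Both genotypes therefore carry the floxed allele, and the labels give LysMCre for KO alone, which limits deletion to cells of the myeloid lineage. Each genotype was kept for 24 h in 1 of 3 states. M1 cultures received 5 ng/ml LPS with 10 ng/ml interferon gamma, M2 cultures received 10 ng/ml IL-4, and M0 cultures were left unstimulated. There were 4 arrays in each of the 6 groups, listed as KO M1, WT M1, KO M2, WT M2, KO M0 and WT M0. The labels call them biological replicates without saying which mouse each came from, and the age and strain of the mice were not given in the sources used here.

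Before a cell copies its DNA, the origin recognition complex, Cdc6 and Cdt1 load the ring-shaped MCM helicase onto origins, and Cdc45 and the GINS complex turn it into an active helicase. Polymerases then copy both strands while the sliding clamp holds them on the template, and ribonucleotide reductase, thymidylate synthase and thymidine kinase supply the nucleotides. E2F transcription factors and cyclin E switch much of this set on at the border between G1 and S phase. Bone marrow macrophages divide under M-CSF, and LPS and interferon gamma are known to stop that division.

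Every value below is a log2 intensity relative to its own array's 75th percentile of gene spots, so that 0 is the 75th percentile and 1 unit is a doubling. Levels of different genes come from different probes and were not compared. A gene is called when its adjusted p is under 0.05 in limma's moderated test over all 25956 genes, with all 24 arrays in 1 fit. Differences are given ± the standard error of that fit. The brightest probe stands for a gene.

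The 75th percentile itself lay between 2291 and 4905 intensity units over the 24 arrays, and 55.0% to 72.6% of gene spots were well above background. Of the 41 genes, 39 were well above background on all 24 arrays. Ccne2 (cyclin E2) was above background on 0 of 4 KO M1 arrays and 0 of 4 WT M1 arrays, so no fold is given for it, and Orc1 was above background on 3 of 4 arrays in each M1 group. In the other states Ccne2 was dim too, above background on 2 of 4 arrays in KO M2, KO M0 and WT M0 and on 1 of 4 in WT M2. It is still counted among the 41 genes in every comparison. The 8 macrophage markers, among them Csf1r, Adgre1 and Cd68, were well above background in every group. The 6 M1 markers summed to 316 to 641 times the 75th percentile in KO M1 and 324 to 464 in WT M1, and to at most 4.40 in the M2 and M0 groups. The 7 M2 markers summed to 430 to 514 in KO M2 and 417 to 571 in WT M2. The Slc2a1 probe did not separate the genotypes (KO minus WT 0.30 in M1, -0.14 in M2 and -0.34 in M0, none called), and the sources used here do not say whether it lies in the deleted part. Lyz2, the gene that carries the Cre insertion, was lower in KO by 3.33, 4.00 and 2.67 in M1, M2 and M0 (all called), with each KO array below each WT array. The arrays fell on 3 slides, each with 1 complete set of the 6 groups (sets 1 to 3) and 1 further pair of KO and WT arrays of 1 state. These 3 further pairs are called the 4th set, and the M1 pair in it is replicate 3, the M2 pair replicate 4 and the M0 pair replicate 2. Of the Y-linked genes, Uty, Eif2s3y and Ddx3y were well above background on 0 of 6 arrays of the 4th set and on 18 of 18 other arrays, although Kdm5d was so on all 24, and Xist was above background on 6 of 6 and 2 of 18.

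With M1 activation most of the replication genes fell, in both genotypes. In KO cells 31 of 41 fell and 2 rose, and in WT cells 31 fell and 1 rose (M1 against M0). The background in the same comparisons was 23.2% of all genes called lower and 32.3% called higher in KO, and 22.9% lower and 23.2% higher in WT. The share of the replication genes called lower was 75.6% in each genotype. The median difference over the 41 genes was -2.03 in KO and -1.93 in WT, beside 0.25 and -0.01 over all genes. In all, 29 genes fell in both genotypes, 18 of them by over 4-fold in both. Over all genes, the share called lower in both can be at most the 22.9% called lower in WT. In bulk RNA, fewer cells in S phase and less of these RNAs per cell cannot be told apart.

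Nucleotide supply fell furthest, with 4 of 4 genes called lower in each genotype. Rrm2, the S phase subunit of ribonucleotide reductase, which makes deoxynucleotides, had levels of -2.94, -2.46, -2.28 and -2.93 on KO M1 arrays 1 to 4, against 4.21, 1.95, 3.10 and 3.42 on KO M0 arrays. In WT it had -3.40, -3.84, -3.34 and -3.73 in M1 against 3.75, 1.26, 2.83 and 2.77 in M0. The M1 arrays of either genotype lay far below every M0 array, with no overlap, and the fall was 5.82 ± 0.49 in KO (adjusted p = 2.86e-09) and 6.23 ± 0.49 in WT (adjusted p = 2.47e-09). Tk1, thymidine kinase, which salvages thymidine in S phase, stood at -2.38, -2.78, -1.65 and -2.63 in KO M1, against 3.94, 1.95, 3.20 and 3.71 in KO M0. Its WT levels were -3.25, -3.87, -3.34 and -3.50 in M1 and 3.95, 1.45, 3.31 and 3.24 in M0. All M1 arrays were again below all M0 arrays, and the differences were -5.56 ± 0.46 (adjusted p = 2.05e-09) in KO and -6.48 ± 0.46 (adjusted p = 5.46e-10) in WT. Rrm1, the large subunit of the same reductase, stood at -0.67, -0.60, -0.14 and -0.68 in KO M1, against 3.66, 2.39, 2.89 and 3.45 in KO M0. In WT it stood at 0.12, 0.07, 0.49 and -0.04 in M1 and 3.70, 2.21, 3.20 and 3.24 in M0. Its groups did not overlap either, and it fell by 3.62 in KO (adjusted p = 2.56e-09) and 2.93 in WT (adjusted p = 1.08e-07). Tyms, thymidylate synthase, fell by 2.32 and 3.12.

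Of the 7 MCM genes 6 fell in KO and 7 in WT. Mcm3 is a member of the helicase ring. It had 1.21, 2.13, 1.51 and 1.89 on the KO M1 arrays, against 4.00, 2.88, 3.76 and 4.15 on the KO M0 arrays, and 2.59, 2.85, 3.12 and 2.87 in WT M1, against 4.30, 3.43, 3.82 and 3.88 in WT M0. Both genotypes were lower in M1 without overlap, by 2.01 ± 0.30 in KO and 1.00 ± 0.30 in WT. Mcm4, Mcm5, Mcm6 and Mcm7, which close the same ring, fell by 1.61, 2.74, 4.09 and 2.63 in KO and by 1.65, 3.50, 2.49 and 3.80 in WT. Mcm10, a scaffold that helps to start the helicase, fell by 2.68 and 3.64. Mcm2 was the exception: it fell by 2.76 in WT, while its difference in KO was -0.10 ± 0.40 (adjusted p = 0.856).

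Of the 4 licensing genes 2 fell in KO and 3 in WT. Cdc6, which loads the helicase together with the origin recognition complex, fell by 2.90 in KO and 1.84 in WT, and Orc6, a subunit of that complex, by 0.98 and 0.82. Orc1, the complex's largest subunit, fell by 2.99 in WT and differed by -1.58 ± 0.71 (adjusted p = 0.0669) in KO. It was above background on 3 of 4 M1 arrays in each genotype. A fit with the replicate number as a block called it in KO (adjusted p = 0.0476), but equal numbers in M1 and M0 do not always mark the same set of arrays. Cdt1, the partner of Cdc6, was not called in either genotype in the fit without a block. It had 3.60, 3.15, 2.82 and 2.92 in KO M1, against 3.71, 3.00, 2.86 and 3.37 in KO M0, and 2.93, 2.73, 2.49 and 2.86 in WT M1 and 3.61, 2.78, 2.84 and 3.21 in WT M0, so that the M1 and M0 arrays overlapped.

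The 3 helicase partners fell in both genotypes. Gins2, a GINS subunit, had 0.48, 0.30, 0.45 and 0.43 in KO M1, against 1.85, 0.62, 1.25 and 1.66 in KO M0, and -0.17, -0.02, 0.14 and -0.15 in WT M1, against 2.05, 0.65, 1.44 and 1.26 in WT M0. Its M1 arrays lay below its M0 arrays in each genotype, and the differences were -0.93 ± 0.30 (adjusted p = 0.0127) in KO and -1.4 ± 0.30 (adjusted p = 0.000661) in WT. Cdc45 fell by 2.32 in KO and 3.01 in WT, and Gins1, another GINS subunit, by 3.18 and 0.98.

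Of the 6 polymerase and primase genes 5 fell in KO and 4 in WT. Pold1, the catalytic subunit of the lagging-strand polymerase delta, had 0.40, 0.54, 0.80 and 0.39 in KO M1, against 3.11, 1.95, 2.44 and 2.90 in KO M0. In WT it had 0.16, 0.09, 0.50 and 0.07 in M1, against 3.03, 1.83, 2.52 and 2.3 in M0. The groups did not overlap, and it fell by 2.07 ± 0.29 in KO and 2.21 ± 0.29 in WT. Pole, the catalytic subunit of the leading-strand polymerase epsilon, fell by 4.07 and 4.98. Pola1, the catalytic subunit of polymerase alpha, fell by 3.26 and 3.72, and the primase subunit Prim1 by 4.12 and 2.88. Pola2, the accessory subunit of polymerase alpha, stayed uncalled at 0.12 in KO and 0.00 in WT (adjusted p = 0.689 and 0.99).

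Around the clamp 4 of 7 genes fell in each genotype, and by less than the polymerases. Pcna, the sliding clamp itself, was not called: its levels were 5.76, 5.58, 5.19 and 5.50 in KO M1, against 6.11, 4.25, 5.33 and 5.61 in KO M0, and 6.01, 5.64, 5.31 and 5.61 in WT M1 and 6.29, 4.07, 5.43 and 5.26 in WT M0. The arrays of the states overlapped in both genotypes, and the differences were 0.18 ± 0.40 (adjusted p = 0.729) in KO and 0.38 ± 0.40 (adjusted p = 0.477) in WT. The clamp loader subunits Rfc4 and Rfc5 fell by 1.21 and 0.70 in KO and 1.62 and 0.99 in WT, although another of the 3 Rfc5 probes rose by 0.81 in WT. Rpa1 and Rpa2, subunits of the protein that covers single-stranded DNA, fell by 1.02 and 0.85 in KO and 1.11 and 1.4 in WT. The loader subunit Rfc2 was not called (-0.22 and -0.12). Rfc3, a further loader subunit, rose by 0.66 in KO, and its WT difference of -0.38 was called with the replicate number as a block (adjusted p = 0.0424).

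Both joining genes fell. Lig1, the ligase that seals Okazaki fragments, had 2.08, 1.79, 2.52 and 2.16 in KO M1, against 4.18, 4.36, 3.63 and 4.48 in KO M0, and 1.84, 2.04, 2.23 and 2.26 in WT M1, against 4.15, 4.68, 4.01 and 3.68 in WT M0. No M1 array reached the M0 range in either genotype, and the fall was 2.03 ± 0.21 in KO and 2.03 ± 0.21 in WT. Fen1, the nuclease that trims the fragments' ends, fell by 0.79 and 1.47.

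Of the 3 chromatin genes 2 fell in each genotype. Uhrf1, which brings the maintenance DNA methyltransferase to newly copied DNA, had -3.39, -3.78, -3.28 and -3.97 in KO M1, against 2.33, 0.25, 1.25 and 1.59 in KO M0. In WT it had -3.53, -4.12, -3.73 and -4.40 in M1, against 2.26, -0.35, 1.12 and 1.34 in M0. The states were far apart on all arrays, with falls of 4.96 ± 0.51 in KO and 5.04 ± 0.51 in WT. Chaf1a, a subunit of the factor that sets histones on new DNA, fell by 2.06 and 2.14. Its partner Chaf1b was not called, with 2.63, 2.92, 3.24 and 2.90 in KO M1, against 2.93, 1.72, 1.90 and 2.48 in KO M0, and with 1.52, 1.81, 2.45 and 1.88 in WT M1 and 2.86, 1.62, 1.99 and 2.05 in WT M0. The arrays of the states overlapped in both genotypes.

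Among the regulators, E2f2 and the repressor E2f8 fell in both genotypes (E2f2 by 4.59 in KO and 2.2 in WT, E2f8 by 3.79 and 2.80), and E2f1, the best known activator of S phase genes, fell by 1.61 in KO and differed by -0.25 ± 0.17 (adjusted p = 0.243) in WT. Ccne1, cyclin E1, which drives entry into S phase together with Cdk2, went the other way. It had 5.04, 4.75, 3.82 and 4.73 in KO M1, against 2.19, 0.01, 0.43 and 1.1 in KO M0, and 3.39, 2.97, 2.24 and 2.59 in WT M1, against 2.25, -0.27, 0.78 and 0.78 in WT M0. In KO every M1 array was above every M0 array, while in WT the highest M0 array, replicate 1, lay just above the lowest M1 array. It rose by 3.66 ± 0.51 in KO (adjusted p = 3.16e-06) and 1.91 ± 0.51 in WT (adjusted p = 0.00395), and the WT call was lost without replicate 2. In M1, 8 genes were therefore not called lower in either genotype in the fit without a block: Cdt1, Pola2, Pcna, Rfc2, Rfc3, Chaf1b, Ccne1 and Ccne2. The replicate block called Rfc3 and Ccne2 lower in WT, where Ccne2 was above background on 0 of 4 M1 arrays. With the set as a block Rfc3, Ccne2 and Cdt1 were called lower in WT. The other differences by call were Prim2 and E2f1 (lower in M1 in KO but not in WT) and Mcm2 and Orc1 (in WT but not in KO). A call in 1 genotype only is no test of the difference between genotypes. Prim2 stands here by its brightest probe, and in a fit over all probes 1 of its 2 probes was called lower in WT.

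**Figure D1:**
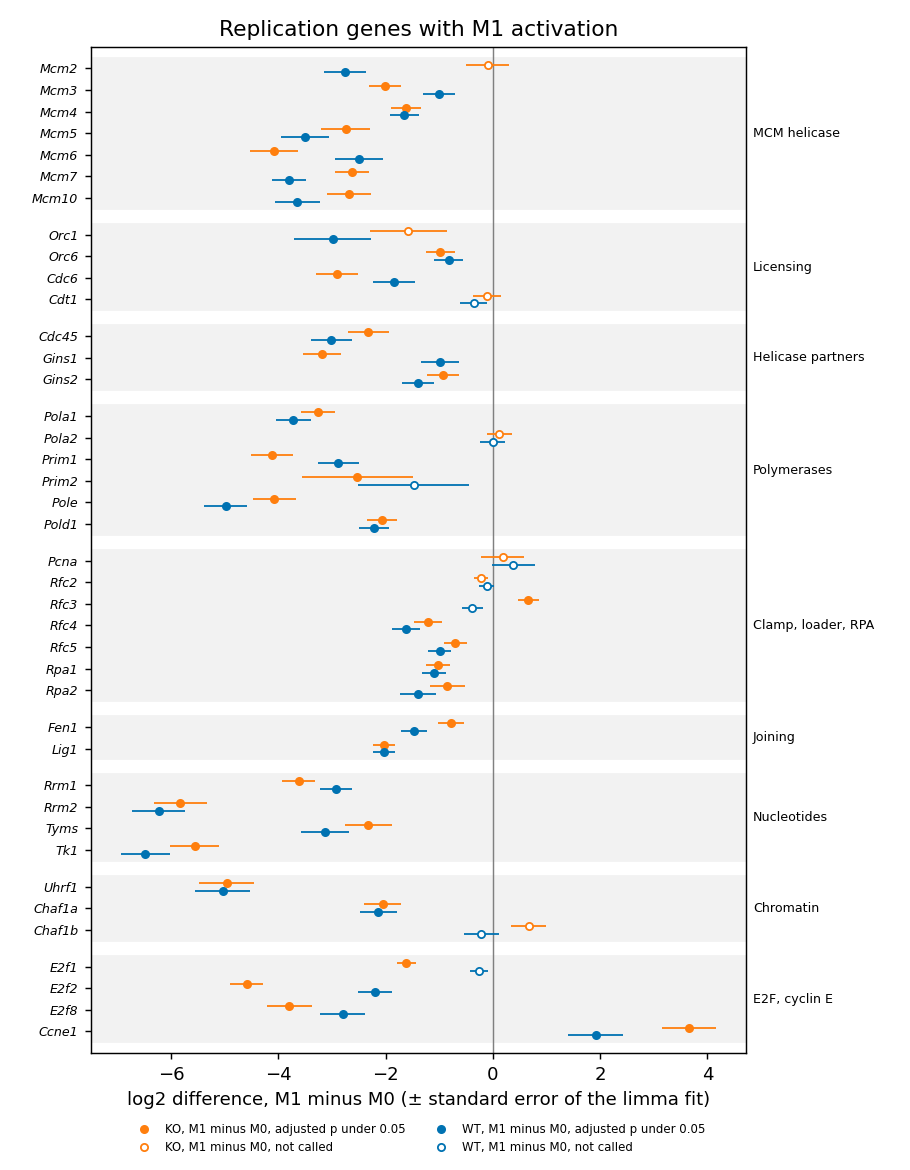
Each row is a gene, sorted by role, with its log2 difference M1 minus M0 on the x axis for KO (orange, above) and WT (blue, below). Circles are fitted differences from 4 arrays a group, filled when the adjusted p is under 0.05, and bars are standard errors. Most circles lie left of 0, down to -5.82 for Rrm2 in KO and -6.48 for Tk1 in WT, and Ccne1 lies right of 0 in both genotypes. Ccne2 is not drawn because it was not above background in M1.

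The median fall kept its sign in every set of arrays. It ran within the sets from -2.49 to -1.36 in KO and from -2.69 to -0.96 in WT, and 34 of 41 genes in each genotype had the same sign in all 4 sets. Of the called genes, 27 of 33 in KO and 27 of 32 in WT were called under all 16 alternatives. In KO the call of Rfc3 was lost without replicate 3, that of Fen1 without replicate 4, that of Rfc5 without replicate 4 and with the mean of its probes, and that of Gins2 without replicate 1 or 3. Rpa2 lost its KO call without replicate 1, 3 or 4 and with the slide as a block. In WT Gins1 lost its call without replicate 1, 3 or 4 and with scaling on the median, Orc6 without replicate 3 and with that scaling, Mcm3 without replicate 1 and Rfc5 with the mean of its probes. Without the 4th set 32 genes fell and 2 rose in KO, and 32 fell and 1 rose in WT, beside 58.6% and 49.4% of all genes called in either direction. The neutrophil markers moved with the state in WT, while their sums overlapped in KO: the 8 of them summed to 41.8 to 118 in KO M1 and 45.2 to 201 in KO M0, and to 8.61 to 43.1 in WT M1 and 64.0 to 167 in WT M0. In WT 7 of the 8 were called lower in M1 and 1 higher, beside 22.9% and 23.2% of all genes. In KO 2 were called lower and 1 higher, beside 23.2% and 32.3%. The part of these markers in the result was not tested.

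The promoters of genes that fell together are shown because replication genes are textbook E2F targets. RefSeq promoter windows on GRCm38.p6, 250 bases before to 50 after the start, were available for 34 of the 41 genes, and none was used for Mcm4, Gins1, Gins2, Prim2, Pole, Rfc2 and Ccne2. They were searched on both strands for the E2F words TTTCCCGC, TTTGGCGC, TTTCGCGC and TTTGCCGC, which overlap each other in runs such as TTTGGCGCGAAA. Of the 34 windows, 13 (38.2%) held a word, against 2.6% of 27025 genes with a window and 3.85% of the 14243 tested genes with 1. The 13 were Cdc6, Cdt1, E2f2, Lig1, Mcm3, Mcm5, Mcm6, Mcm7, Orc1, Pola1, Pold1, Rfc3 and Uhrf1. A word in the window is a description and not a bound site. The stretches below come from before the start of 4 genes called lower in M1 in WT and of Rfc3, not called there without a block. They are written 5' to 3' along the gene's strand, with the matched words in capitals.
Mcm5, chr8:75109339-75109398, plus strand: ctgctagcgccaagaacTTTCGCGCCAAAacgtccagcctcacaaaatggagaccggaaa
Mcm6, chr1:128359736-128359835, minus strand: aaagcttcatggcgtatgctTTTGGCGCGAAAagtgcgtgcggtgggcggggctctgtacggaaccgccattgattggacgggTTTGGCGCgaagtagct
Orc1, chr4:108579394-108579453, plus strand: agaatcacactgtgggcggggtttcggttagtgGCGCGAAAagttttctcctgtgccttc
Cdc6, chr11:98907991-98908050, plus strand: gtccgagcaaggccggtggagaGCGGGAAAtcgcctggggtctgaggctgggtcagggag
Rfc3, chr5:151651209-151651268, minus strand: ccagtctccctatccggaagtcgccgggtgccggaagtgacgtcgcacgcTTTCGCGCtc
Mcm6 holds 2 separate groups of words, the nearer beginning 47 bases before the start and the farther 110 bases before it. Of the 13 holders, Cdt1 and Rfc3 were not called lower with M1 activation in either genotype in the fit without a block. In that fit a word in the window therefore went with both kinds of gene. With the set as a block both were called lower in WT, and Rfc3 also with the replicate block.

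In M1, KO and WT cells differed in 14 of the 41 replication genes, and in both directions. In KO M1 against WT M1, 8 were called higher (Mcm2, Ccne1, Mcm7, Pole, Mcm10, Rfc3, Chaf1b and Fen1) and 6 lower (E2f2, Gins1, Mcm6, E2f1, Mcm3 and Cdc6). In the fit without a block that is 34.1% of the genes, under the background of 43.6% of all genes called in this comparison. The share called in that fit is therefore not a result about the replication genes. What follows are the values. Same-numbered KO and WT arrays of a state deviated together, so a fit with the replicate number as a block was run beside the fit without it. The 14 calls remained in it and 17 were added, and the blocked adjusted p of each gene it added is given with the gene. Ccne2 (blocked adjusted p = 0.0207) is among the 17, but it was above background on 0 of 4 arrays in each M1 group. Its call therefore compares signals at background. The median over the 41 was 0.47, beside 0.17 over all genes, and 30 were above 0, beside 59.1% of all genes. The 4 KO arrays lay wholly above the 4 WT arrays for 15 genes and wholly below for 7, against 23.6% and 20.1% of all genes.

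The helicase ring was split. Mcm2 had -0.11, 0.49, 0.68 and 0.42 on the KO M1 arrays, against -2.53, -2.49, -1.83 and -2.33 on the WT M1 arrays. All 4 KO arrays were far above all 4 WT arrays, by 2.66 ± 0.40 (adjusted p = 1.25e-05), and by 2.42, 2.98, 2.75 and 2.51 in sets 1 to 4. Mcm7 had 0.31, 0.58, 0.97 and 0.48 in KO M1, against -0.89, -0.73, -0.70 and -0.62 in WT M1, again without overlap and higher by 1.32 ± 0.32 (adjusted p = 0.002). Mcm6 did the opposite, with -0.26, -0.67, 0.21 and -1.14 in KO M1, against 0.75, 1.17, 1.34 and 1.42 in WT M1. No KO array reached the WT range, and the difference was -1.64 ± 0.45 (adjusted p = 0.00512). Mcm3 was lower in KO too, with the per-array levels given above and a difference of -1.17 ± 0.30 (adjusted p = 0.0034). Mcm10 was higher by 1.24 (adjusted p = 0.0209), with set values from 0.28 to 2.2. Mcm4 and Mcm5 were not called (0.11 and 0.87), and Mcm5 was called with the block (blocked adjusted p = 0.000213).

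The helicase partners were split as well. Gins1 had -3.12, -3.09, -3.16 and -3.29 in KO M1, against -1.43, -1.24, -0.98 and -1.2 in WT M1. The KO arrays were tightly grouped and all below WT, with a difference of -1.95 ± 0.36 (adjusted p = 0.000125), and set values from -2.17 to -1.69. Its partner in the same complex, Gins2, differed by 0.47 ± 0.30 (adjusted p = 0.225), and Cdc45 by 0.94 ± 0.38 (adjusted p = 0.0521), neither called although no array of either overlapped. Both were called with the block (blocked adjusted p = 0.00606 for Gins2 and 0.000442 for Cdc45). Of the licensing genes, Cdc6 was lower by 1.02 (adjusted p = 0.042), while Orc1, Orc6 and Cdt1 were not called (1.55, 0.03 and 0.37). The block called Orc1 (blocked adjusted p = 0.0361) and Cdt1 (blocked adjusted p = 0.0179).

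At the fork, Pole was higher by 1.28 (adjusted p = 0.0143) and Fen1 by 0.70 (adjusted p = 0.0239). Rfc3 had 2.45, 1.77, 2.04 and 1.98 in KO M1, against 0.96, 0.83, 1.01 and 0.76 in WT M1. All KO arrays were above all WT arrays, by 1.17 ± 0.20 (adjusted p = 6.34e-05), and the 3 other loader subunits were not called (-0.12 for Rfc2, 0.56 for Rfc4, 0.49 for Rfc5). The block called Rfc4 and Rfc5 (blocked adjusted p = 0.0003 and 0.0019). Pcna differed by -0.14 ± 0.40 (adjusted p = 0.809), and Pold1 by 0.33 ± 0.29 (adjusted p = 0.378), with a blocked adjusted p of 0.0448. Pola1 differed by 0.64 and Prim1 by -0.94, not called but with blocked adjusted p of 0.000184 and 1.34e-05. Pola2 was not called, but was with the mean of its probes. Its 3 probes ran from 0.13 to 1.13, and 2 of them were called higher in a fit over all probes. Lig1, Rpa1 and Rpa2 were not called (0.04, 0.12 and 0.76), and the block called Rpa2 (blocked adjusted p = 0.000181). Chaf1b, whose arrays are given above, was higher by 1.01 ± 0.32 (adjusted p = 0.0155), and Chaf1a and Uhrf1 were not called (0.15 and 0.34).

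Of the 4 nucleotide genes 0 were called in the fit without a block, and 4 with it, beside 43.6% and 55.5% of all genes. Tk1, Rrm2 and Tyms stood higher in KO M1 by 1.13, 0.92 and 0.87, and Rrm1 differed by -0.68, with adjusted p of 0.0516, 0.137, 0.127 and 0.0747 in that order. Their blocked adjusted p in the same order were 0.000113, 0.000202, 0.000104 and 6.72e-05. For each of these genes the 4 KO arrays and the 4 WT arrays did not overlap, beside 23.6% of all genes wholly above and 20.1% wholly below. Of their probes well above background on every M1 array, 2 of 3 for Tk1 and 1 of 3 for Tyms were called higher in a fit over all probes.

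Among the regulators, both E2F activators in the list were lower in KO M1 and cyclin E1 was higher. E2f2 had -2.86, -3.01, -2.58 and -3.26 in KO M1, against -0.87, -0.98, -0.56 and -1.43 in WT M1. All KO arrays were below all WT arrays, by 1.97 ± 0.31 (adjusted p = 2.69e-05). E2f1 was lower by 1.48 ± 0.17 (adjusted p = 4.31e-07), from -1.61 to -1.31 in the sets. Ccne1 was higher without overlap, by 1.79 ± 0.51 (adjusted p = 0.00688), and from 1.59 to 2.14 in the sets. E2f8 was not called (-0.61; blocked adjusted p = 0.00167).

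**Figure D2:**
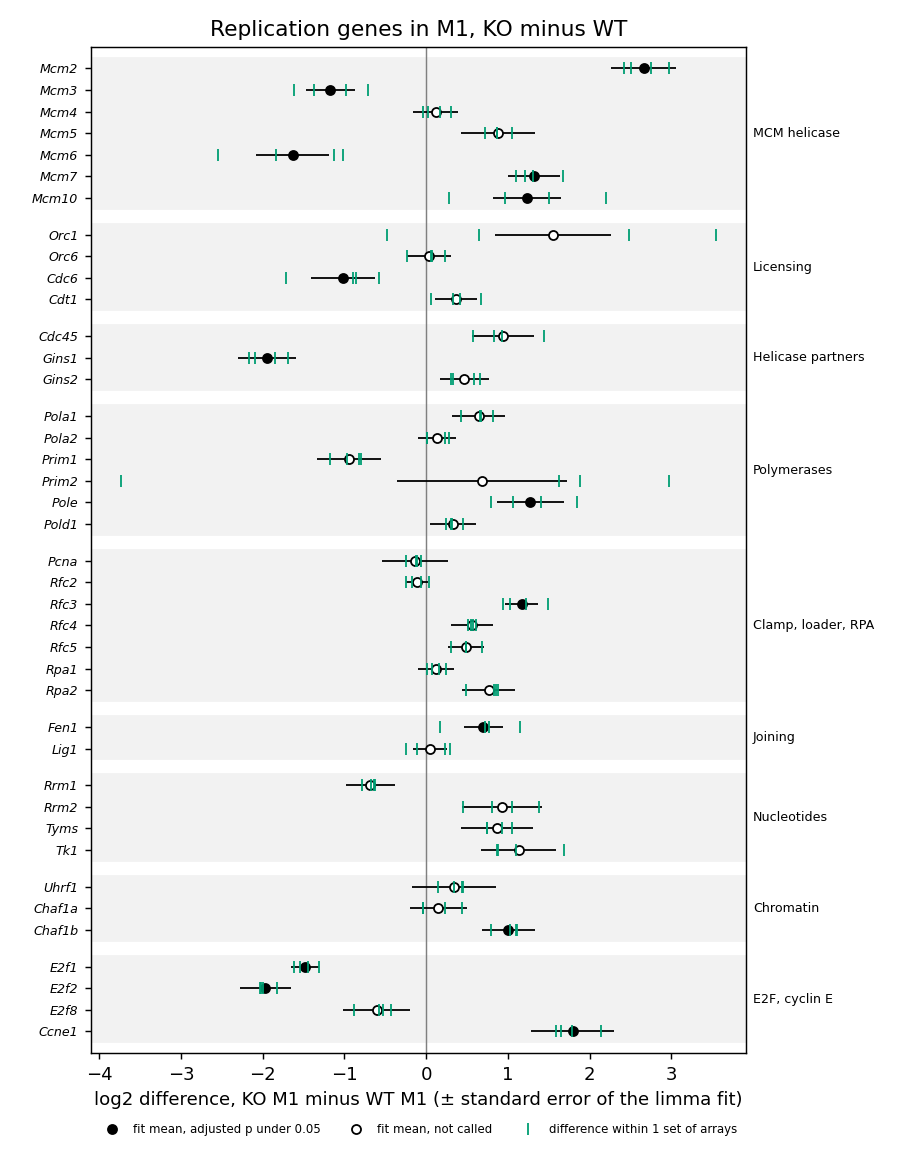
Each row is a gene, sorted by role, with its log2 difference KO M1 minus WT M1 on the x axis. Circles are fitted differences from 4 arrays a group, filled when called, bars are standard errors, and green ticks are the differences within the 4 sets of arrays. Filled circles lie on both sides of 0, from -1.97 for E2f2 to 2.66 for Mcm2, and the ticks of Prim2 lie on both sides of 0. Ccne2 is not drawn.

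**Figure D3:**
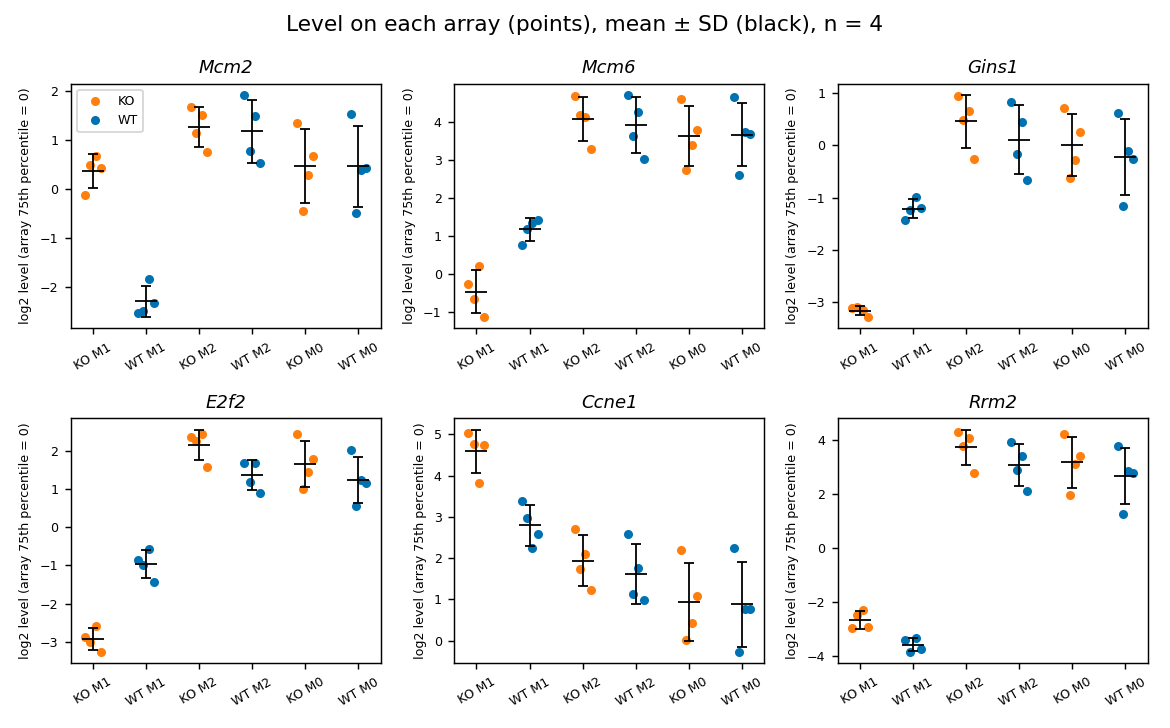
The panels show 6 genes, with the log2 level on each array (points, KO orange and WT blue) and the mean ± SD of 4 arrays (black) by group. In M1 the KO points lie above the WT points for Mcm2 and Ccne1 and below them for Mcm6, Gins1 and E2f2, while in M2 and M0 the KO and WT points of each gene overlap. Rrm2 is low in M1 in both genotypes.

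The calls between the genotypes in M1 depended on the fit and on single replicates. The median of all genes, 0.17 in the fit above, was -0.07 with quantile normalization, -0.11 with scaling on the median and 0.26 with the normexp background, and the calls among the replication genes were 8 higher and 8 lower, 4 and 8, and 9 and 5 under these. With the replicate number as a block 22 were higher and 9 lower, 75.6% of the genes beside 55.5% of all genes. Ccne2, not above background on any M1 array, was among the 22. With the set as a block 17 were higher and 8 lower, 61.0% beside 53.7%. The calls of Mcm2, Mcm7, Rfc3, Gins1, E2f1 and E2f2 held under all 16 alternatives. Without replicate 1 the calls of Mcm10, Pole and Fen1 were lost, without replicate 2 those of Cdc6, Fen1 and Chaf1b, without replicate 3 those of Mcm3, Cdc6 and Pole, and without replicate 4 those of Mcm6, Mcm10, Fen1, Chaf1b and Ccne1. Without the 4th set 13 were higher and 7 lower, beside 50% of all genes called, and the call of Cdc6 was lost. Of the 41 genes 24 had several kept probes, and 17 had several that were well above background on every KO M1 and WT M1 array. Of these 17, 14 had 1 sign over those probes. Mcm2 and E2f1 had 1 probe each, and the other Mcm7 probe was above background on 1 of 4 KO M1 and 0 of 4 WT M1 arrays.

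Markers of other cells were read in KO M1 against WT M1 too, beside 23.9% of all genes called higher and 19.7% called lower. The neutrophil markers summed to 41.8 to 118 in KO M1 and 8.61 to 43.1 in WT M1, with 3 of 8 called higher and 1 lower. The myeloid progenitor markers summed to 6.44 to 9.44 in KO M1 and 4.51 to 6.54 in WT M1, with 3 of 9 called higher, and 2 of the 9, Kit and Ms4a3, were not above background on any WT M1 array (Kit was at least 3.8-fold higher in KO M1). The dendritic cell markers summed to 43.5 to 67.1 in KO M1 and 24.5 to 42.3 in WT M1, with 1 of 5 called higher and 1 lower, and Xcr1 was not above background on any array of either group. The lymphocyte markers summed to 0.656 to 0.923 in KO M1 and 0.588 to 1.47 in WT M1, with 2 of 6 called higher. Of the mast cell and basophil, erythroid and stromal markers, 0 of 4, 0 of 3 and 0 of 6 tested were called. Among the macrophage markers 1 of 8 was higher and 2 lower, and the 75th percentile was 2291 to 2545 intensity units on the KO M1 arrays, below the other 20 arrays. The part of these markers and of array brightness in the differences above was not tested.

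The difference in the response to M1 activation (KO response minus WT response) was called for 5 of the 41 genes in the fit without a block. That is 12.2%, beside 29% of all genes, so this share too is no result about the replication genes. The difference in response uses the same M1 arrays as the comparison above. Mcm2 responded by -0.10 in KO and -2.76 in WT, a difference of 2.66 ± 0.56 (adjusted p = 0.000987). Rfc3 responded by 0.66 in KO and -0.38 in WT, a difference of 1.04 ± 0.28 (adjusted p = 0.00773). In the other direction, Gins1 responded by -3.18 in KO and -0.98 in WT, a difference of -2.2 ± 0.50 (adjusted p = 0.002). E2f2 responded by -4.59 in KO and -2.2 in WT, a difference of -2.39 ± 0.44 (adjusted p = 0.000278). E2f1 responded by -1.61 in KO and -0.25 in WT, a difference of -1.36 ± 0.24 (adjusted p = 0.000176). Of these, Rfc3 lost its call with scaling on the median and without replicate 3, and the other 4 were called under all 16 alternatives. With the replicate block 25 genes were called (16 higher, 9 lower; 61.0% beside 40.1% of all genes). The difference in response of Ccne1 was 1.74 ± 0.72 (adjusted p = 0.0776), with a blocked adjusted p of 3.05e-05, the lowest of the 20 genes the block added. The other 19 were Cdc45, Cdc6, Chaf1b, E2f8, Fen1, Gins2, Mcm10, Mcm3, Mcm5, Mcm6, Mcm7, Pola1, Pole, Prim1, Rfc4, Rpa2, Rrm1, Tk1 and Tyms, with blocked adjusted p from 5.48e-05 for Prim1 to 0.0446 for Gins2.

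Without stimulation, no replication gene passed the test between the genotypes. In M0, 0 of 41 genes were called by limma between KO and WT, and 0 had an unadjusted p under 0.05, beside 0.0539% of all genes called. The median difference was 0.13, beside -0.01 over all genes, and 36 of 41 lay above 0, beside 47.0% of all genes. With scaling on the median 23 lay above 0, with a median of 0.03. The sets ran from -0.11 to 0.37. Apart from Prim2, the differences ran from -0.16 for Mcm3 to 0.52 for Rrm2. Mcm2 had 1.35, -0.45, 0.29 and 0.67 in KO M0, against 1.53, -0.50, 0.39 and 0.43 in WT M0, and E2f2 had 2.43, 0.99, 1.44 and 1.78 in KO M0, against 2.02, 0.54, 1.23 and 1.16 in WT M0. The genotypes overlapped for both genes.

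In M2, all 41 genes lay above 0 in KO against WT, by small amounts of which 0 were called. The background was 0.0462% of all genes called, and 64.6% of all genes lay above 0. Ccne2 is counted among the 41, although it was above background on 2 of 4 KO M2 and 1 of 4 WT M2 arrays. The median difference was 0.35, beside 0.07 over all genes, and 3 genes had an unadjusted p under 0.05. With quantile normalization, scaling on the median or the normexp background 40 genes lay above 0. The medians within the 4 sets ran from 0.15 to 0.61, and 29 of the 41 genes had the same sign in every set. E2f2 had 2.36, 2.25, 2.45 and 1.58 in KO M2, against 1.69, 1.19, 1.69 and 0.90 in WT M2. Most KO arrays were above the WT arrays, but the lowest KO array, replicate 4, lay among them, and the difference was 0.79 ± 0.31 (adjusted p = 0.971). E2f8 differed by 0.85 ± 0.41 and Prim1 by 0.61 ± 0.39. With the replicate block these 3 genes were called higher, 7.32% of the genes beside 0.227% of all genes. Rrm2 had 4.27, 3.78, 4.06 and 2.79 in KO M2, against 3.93, 2.87, 3.40 and 2.11 in WT M2, and Mcm2 had 1.66, 1.13, 1.51 and 0.75 in KO M2, against 1.92, 0.78, 1.50 and 0.52 in WT M2. Both genes overlapped between the genotypes.

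M2 activation moved the replication genes little. In KO 1 of 41 was called higher in M2 than in M0, beside 6.51% of all genes higher and 5.57% lower, and in WT 0 were called by limma (2 at an unadjusted p under 0.05), beside 5.26% higher and 9.72% lower. The called gene was the loader subunit Rfc5, with 4.04, 3.63, 3.79 and 3.31 in KO M2, against 3.44, 2.65, 2.60 and 3.05 in KO M0. The arrays of the states overlapped, and the difference was 0.76 ± 0.22 (adjusted p = 0.0276), a call lost without replicate 2, 3 or 4. In WT, Rfc5 had 3.80, 2.84, 3.36 and 2.99 in M2, against 3.23, 2.38, 2.61 and 2.72 in M0, a difference of 0.51 ± 0.22 (adjusted p = 0.131) that the replicate block called (adjusted p = 0.0262). The median over the 41 genes was 0.45 in KO and 0.18 in WT, beside -0.06 and -0.13 over all genes, and 40 and 33 genes lay above 0, beside 44.3% and 37.3% of all genes. Within the sets the medians ran from 0.23 to 0.71 in KO and from -0.05 to 0.45 in WT. The same sign held in all 4 sets for 31 and 16 genes. Without replicate 2 the medians were 0.23 and 0.01, and 38 and 23 genes lay above 0, beside 44.8% and 46.2% of all genes. With the set as a block, Ccne1, Cdc45, Pcna, Pola2 and Rfc5 were called higher in KO, 12.2% of the genes beside 20.8% of all genes. In WT that block called Ccne1 and Rfc5 higher and Lig1 lower, 7.32% beside 24.8%. The difference in the response to M2 activation, KO minus WT, lay above 0 for all 41 genes with a median of 0.25, beside 0.10 and 70.8% over all genes, and 0 were called by limma, 0 at an unadjusted p under 0.05. Its medians within sets 1 to 4 were 0.05, 0.73, -0.01 and 0.18, and 9 of the 41 genes had the same sign in all 4 sets. Ccne2, counted among the 41, was above background on 2 of 4 arrays in KO M2, KO M0 and WT M0 and on 1 of 4 in WT M2.

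The remaining per-array levels in M2 belong to genes described above. Pcna had 6.40, 6.16, 6.18 and 5.43 in KO M2 and 6.43, 5.58, 5.90 and 5.13 in WT M2, and Mcm3 had 4.36, 4.23, 4.54 and 3.34 and 4.51, 3.76, 4.23 and 3.45. Ccne1 had 2.70, 1.74, 2.09 and 1.23 in KO M2 and 2.58, 1.13, 1.75 and 1.00 in WT M2. The genotypes overlapped for these 3 genes in M2. Mcm6, Mcm7 and Gins1, which separated KO from WT in M1, averaged 4.07 ± 0.58, 3.77 ± 0.45 and 0.46 ± 0.51 in KO M2 and 3.90 ± 0.73, 3.44 ± 0.55 and 0.11 ± 0.67 in WT M2 (SD, n = 4 each). For each gene the spread of the 4 arrays was larger than the difference between the genotypes.

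Much of that spread in M2 and M0 followed the set of arrays. In KO M2, 38 of 40 genes measured on every array were lowest in the 4th set, and in WT M2 35 of 41, beside 40.5% and 20.9% of all genes. In KO M0 34 of 41 and in WT M0 39 of 41 were lowest there, beside 33.1% and 34.4% of all genes. The 4th set minus the mean of the others gave a median over the genes of -0.83 in KO M2, -0.84 in WT M2, -0.93 in KO M0 and -1.01 in WT M0. Over all genes these medians were -0.05, 0.09, 0.01 and 0.02. Set 1 was the opposite, holding the highest array for 35, 38, 38 and 39 genes in these 4 groups, beside 26.7%, 30.9%, 21.5% and 26.9% of all genes. In M1 the pattern was not seen: 5 genes in KO M1 and 8 in WT M1 were lowest in the 4th set (beside 43.4% and 33.9% of all genes), and its median difference from the others was 0.14 and 0.23 (beside -0.10 and -0.01 over all genes). KO and WT arrays of a set moved together in M2 and M0. For sets 1 to 3 the slide and the source of the cells cannot be told apart, and the 4th set, spread over the 3 slides, stood apart in its Y-linked genes and Xist, whose part in the pattern was not tested.

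**Figure D4:**
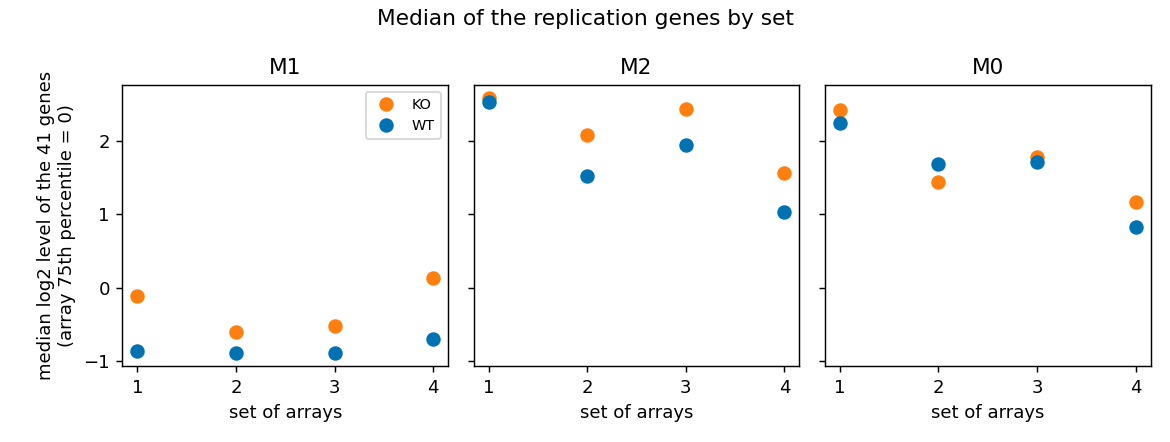
Each point is 1 array, placed by set (x axis) and by the median log2 level of the 41 genes (y axis), for M1, M2 and M0 from left to right, with KO in orange and WT in blue. In M2 and M0 the points are highest in set 1 and lowest in set 4 (2.59 and 1.57 in KO M2, 2.25 and 0.83 in WT M0), while in M1 set 4 is the highest in both genotypes.

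Prim2, a primase subunit, behaved unlike the other genes and was singled out after its values were seen. Its brightest probe lies at chr1:33510733-33510792 on the minus strand in mm9, the build in the files. It read -2.62, -5.08, -0.98 and -2.55 in KO M1 and -4.25, -1.34, -3.95 and -4.44 in WT M1, 0.85, -2.2, 0.79 and 1.13 in KO M2 and -2.00, 0.14, -2.48 and -3.02 in WT M2, and 0.59, 0.67, -2.78 and 0.38 in KO M0 and -2.29, -3.10, 0.14 and -2.81 in WT M0. KO was high and WT low in every set but set 2, where the order turned in all 3 states. KO minus WT in sets 1 to 4 was 1.63, -3.74, 1.88 and 2.97 in M1, 2.85, -2.34, 3.27 and 4.15 in M2 and 2.88, -2.91, 3.18 and 3.77 in M0. On the same arrays Lyz2 was lower in KO than in WT in all sets. Prim2's other probe, at chr1:33535912-33535971, did not turn in set 2 and averaged -3.71 ± 0.20 in KO M1 and -4.48 ± 0.24 in WT M1 (SD, n = 4 each), with no overlap. In a fit over all probes it was higher in KO M1 by 0.78 (adjusted p = 0.00431), while its differences of 0.71 in M2 and 0.54 in M0 were not called. The brightest probe's call with M1 activation in KO (-2.52; adjusted p = 0.0644 with the replicate block) was lost when the replicate, the set or the slide entered the fit as a block. It was also lost without replicate 1, 2 or 4 and without the 4th set. Over the 2 probes, M1 minus M0 ran from -2.52 to -0.98 in KO, with 2 called lower in the fit over all probes. In WT it ran from -1.48 to -1.21, with 1 called lower.

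**Figure D5:**
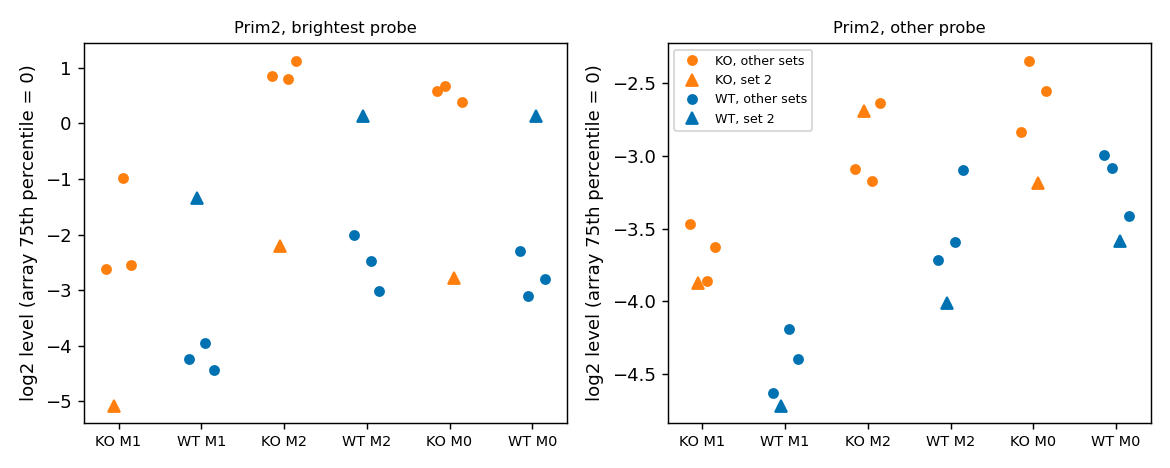
The left panel shows the brightest Prim2 probe and the right panel the other one, with the log2 level on each array by group, KO in orange and WT in blue, and the set 2 arrays as triangles. On the left the triangles take the place of the other genotype in all 3 states (KO M0 -2.78 and WT M0 0.14 in set 2), and on the right they do not.

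Other genes of the same processes were read from lists of their own. The counts of called genes in all 5 lists stand beside the same background: with M1 activation 23.2% of all genes fell and 32.3% rose in KO, and 22.9% fell and 23.2% rose in WT, and in KO M1 against WT M1 23.9% were higher and 19.7% lower. Of 60 further replication genes, 34 fell and 12 rose with M1 activation in KO, and 38 fell and 7 rose in WT, with medians of -1.12 and -1.21. Top2a, which untangles copied DNA, fell by 6.64 in WT. Esco2, which acetylates cohesin in S phase, was not above background in M1 and was at least 21.2-fold lower in KO and at least 29.5-fold lower in WT. Rnaseh2b, a subunit of the enzyme that removes RNA from DNA, rose by 1.93 in KO, and Mcm9, an MCM relative, by 1.64 in WT. Mms22l, which works at stalled forks, rose in both (1.82 and 1.74). In KO M1 against WT M1, 22 of the 60 were higher and 13 lower with a median of 0.52. Recql4, a helicase of replication start, was higher by 3.31, and Ticrr, which helps to load Cdc45, was at least 4.14-fold higher. Cdk2, the kinase partner of cyclin E1, was lower by 1.70 and Pole2, an accessory subunit of polymerase epsilon, at least 2.55-fold lower, being above background on 3 of 4 KO M1 arrays.

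Genes of mitosis fell still further with M1 activation, 17 of 18 in each genotype, with medians of -4.43 in KO and -6.04 in WT. Ccna2, cyclin A2, fell by 7.13 in KO and 8.68 in WT. Kif11, the spindle motor, was at least 69.9-fold lower in KO, and Cenpf, a kinetochore protein, at least 245-fold lower in WT, both being below background on all M1 arrays of that genotype. In KO M1 against WT M1, 10 of 18 were higher and 0 lower by limma, with a median of 1.24. Mki67, the proliferation marker, was higher by 2.98 (adjusted p = 7.48e-08), and Nusap1, a spindle protein, at least 7.74-fold higher.

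Nucleotide synthesis and salvage outside the 41 genes was mixed. With M1 activation 12 of 29 fell and 8 rose in KO, and 14 fell and 5 rose in WT. Prps2, which makes the ribose phosphate for nucleotides, fell in both (by 2.68 and 2.42), Pfas, of the purine route, was at least 4.69-fold lower in KO, and the mitochondrial folate enzyme Mthfd2 rose in both (3.46 and 1.98). Impdh1, of guanine nucleotide synthesis, rose by 1.98 in KO, and Samhd1, which breaks down deoxynucleotides, by 1.87 in WT, where Shmt1 was at least 3.89-fold lower. In KO M1 against WT M1 11 were higher and 7 lower (median 0.16). Impdh2, of guanine nucleotide synthesis, was higher by 2.37, and Shmt1, a folate enzyme of thymidylate synthesis that was not above background in WT M1, at least 7.2-fold higher. Samhd1 and the salvage kinase Dck were lower by 1.34 and 1.28.

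Of 25 CDK inhibitors, D cyclins, pocket proteins and related regulators, 13 fell and 7 rose with M1 activation in KO, and 12 fell and 7 rose in WT. E2f7, a repressing E2F, was at least 50.4-fold lower in KO and 63.9-fold lower in WT. The inhibitor gene Cdkn2c fell by 5.05 in KO and the mitotic activator Foxm1 by 5.22 in WT. Ccnd2, cyclin D2, rose by 3.89 in KO and 4.41 in WT, Cdkn1c by 2.83 in KO and Ccnd1 by 2.49 in WT. In KO M1 against WT M1 7 were higher and 10 lower (median -0.02). Cdkn1c, which encodes the CDK inhibitor p57, was higher by 4.90, and Myc, the growth regulator, by 3.36. Ccnd1, cyclin D1, was lower by 2.14 and its kinase Cdk6 by 1.62.

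Of 18 p53 target genes 17 were tested. With M1 activation 10 rose and 3 fell in KO, and 7 rose and 6 fell in WT. The death receptor gene Fas rose in both (2.23 and 2.15) and the sestrin Sesn1 fell in both (by 5.13 and 4.22). Gdf15, a secreted stress signal, rose by 4.22 in KO, where the antiproliferative Btg2 fell by 1.25. In WT the CDK inhibitor gene Cdkn1a rose by 1.96 and Gadd45a, a stress gene, fell by 2.19. In KO M1 against WT M1 6 were higher and 3 lower (median 0.32). Gdf15 was higher by 4.72 and Gadd45a by 3.41, while Cdkn1a, which encodes the CDK inhibitor p21, was lower by 1.11 and Sesn1 by 0.96. In none of these 5 lists was a gene called between KO and WT in M2 or M0 by limma.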

How the data were processed

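RNA of 24 macrophage cultures was hybridised, 1 colour (Cy3), to Agilent mouse arrays. The deposited files hold the processed intensity of each spot, background-subtracted per the file headers, which name version 10.7.3.1 of Agilent's Feature Extraction software (9.1 in the submitters' processing notes). The deposited matrix of normalized values was not used, because its identifiers did not match the probes.

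Outlier spots (89 to 2005 an array) were left out, no gene spot was saturated, and log2 intensity was set relative to each array's 75th percentile. Spots of a probe were averaged. Of 56605 gene probes, 39038 were well above background on at least 4 arrays, and the brightest stood for each of 25956 genes. Names came from the files, updated for 32994 probes through RefSeq.

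limma 3.58.1 in R 4.3.3 fitted all 24 arrays with 1 mean per group. Benjamini-Hochberg adjustment ran over all genes tested in each of 9 comparisons, and the threshold was 0.05. The residual SD had a median of 0.34, and the number of arrays limits the precision. The labels do not name the mice, so the p-values measure the spread between these cultures.

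Same-numbered KO and WT arrays of a state deviated together from their group means, with r from 0.17 to 0.84 over all genes in 12 pairs, each over 0.1. Pairs of unlike number ran from -0.57 to 0.39, and 7 of 12 KO arrays correlated best with their own number. The number was taken as pairing the samples within a state, so KO against WT and the differences in response were blocked by state and number. For M1 or M2 against M0 the number alone was the block, although equal numbers in different states do not always stand for the same set. In those comparisons the block, and leaving out a replicate, therefore joined arrays of unlike sets. The block's adjusted p stands beside the genes of the list whose call it changed.

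The 41 genes, the roles and the other lists (further replication, mitosis, nucleotide, CDK regulator and p53 target genes, and markers of 8 cell types and of the M1 and M2 states) were chosen with earlier results of these data known. Per-array values are given for the gene with the highest mean level in each role, and for up to 3 called genes with the largest rise and fall per comparison whose arrays do not overlap. Of the other lists, the 2 largest called rises and falls are named in the M1 comparisons, except 1 gene that is not reported here. Where a gene of the other lists was not well above background on every array of a group, its fold is a bound: the bright group's mean against, on each dim array, the higher of its own signal and the lowest signal among probes well above background. Orc1, above background on 3 of 4 arrays in each M1 group, is given as plain differences. Prim2 was described in full, and Rfc5, Mcm2 and other genes given per array in M2, after their values were seen.

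The alternatives were quantile normalization, scaling on the median, the normexp background with an offset of 50, other filters on dim probes, the mean of a gene's probes, outlier spots kept, the replicate number, set or slide as a block, trended and robust moderation, and leaving out each replicate or the 4th set.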

Additional observations from a re-analysis of the deposited data

Results flagged for a closer look

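Among the 18 genes given per array, 108 groups of 4 arrays were searched for an array standing far from the other 3, and 4 were found. Chance alone gives about 1 in 20 such groups. Pold1 had 2.41 on the lowest KO M2 array, replicate 4 of the 4th set, and 3.23 to 3.37 on the others. Tk1 had 3.01 on the same array and 3.70 to 3.81 on the others. Lig1 had 3.71 on KO M2 replicate 2, of set 2, and 3.89 to 3.90 on the others. Rrm1 had -0.14 on KO M1 replicate 3, of the 4th set, and -0.68 to -0.60 on the others.

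The response to M1 activation differed between KO and WT, by the test of the difference itself, for 5 genes. In the fit without a block that is 12.2% of the 41 genes, beside 29% of all genes, so this share is no result about the replication genes. With the replicate block 25 genes were called, 61.0% beside 40.1% of all genes. The KO response minus the WT response was 2.66 for Mcm2, 1.04 for Rfc3, -2.20 for Gins1, -1.36 for E2f1 and -2.39 for E2f2. The cause of these differences was not tested.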

How the results depend on the processing

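Counts are of the 41 replication genes called, and the cause of a change was not tested unless it is named. Between KO and WT in M1, 14 were called, against 31 with the replicate block, 25 with the set as a block and 9 to 13 when 1 replicate was left out. The shares of all genes called were 43.6%, 55.5%, 53.7% and 34.8% to 38.1% in that order. The difference in M1 response had 5 calls, against 8 with quantile normalization, 8 with the mean of a gene's probes, 25 with the replicate block, 9 with the set as a block, 12 without the 4th set and 4 to 7 when 1 replicate was left out. These were 12.2%, 19.5%, 19.5%, 61.0%, 22.0%, 29.3% and 9.76% to 17.1% of the 41 genes. Of all genes 29%, 30.6%, 26.1%, 40.1%, 37.6%, 33.4% and 21.2% to 24.6% were called, in the same order. Between KO and WT in M2, 0 were called, against 3 with the replicate block (beside 0.227% of all genes) and 0 whichever replicate was left out. For M2 against M0, KO had 1 call, against 5 with the set as a block (beside 20.8% of all genes) and 0 to 1 when 1 replicate was left out. WT had 0, against 1 with the replicate block (beside 16.9%) and 3 with the set as a block (beside 24.8%). For M1 against M0, the counts of 33 in KO and 32 in WT were 29 to 33 and 30 to 33 when 1 replicate was left out, and stayed within 1.5 times under the 16 alternatives. KO against WT in M0 and the M2 response kept 0 calls under all 16. The replicate block moved no other count by more than 1.5 times. For the called genes, 1360 values under alternatives held 1309 on the same side of the threshold with the same sign, 51 lost their call and 0 turned their sign.

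The sources used here do not say whether the Slc2a1 probe lies in the deleted part. With 4 arrays a group, the median residual SD was 0.34 on the log2 scale. Orc1 and Ccne2 were near background in M1. Array levels show RNA amounts and do not count cells in S phase.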
